A study of Drosophila melanogaster with 12 samples.

Results

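Of the 23793 rows in the deposited table of raw counts, 978 are single insertions of DNA transposons other than INE-1. They were chosen by the element name that starts each row name: 1360, pogo, FB, S, S2, HB, Bari1, Bari2, Tc1, Tc1-2, Tc3, hopper, hopper2, NOF, looper1, mariner2, and names starting with transib. No measured value entered the choice. These insertions fall into 20 families and are part of the table's 5876 transposable element rows. Searches for hobo and S-element, which the choice also covered, found no row.

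DNA transposons move as DNA: a transposase made by an intact copy cuts elements out at their inverted ends and pastes them elsewhere. Most copies in the fly genome are remnants that no longer encode a transposase, so RNA from such a copy need not mean that it can move. The Piwi-interacting small RNA pathway in the germ line and the short interfering RNA pathway in the body silence transposons in flies, and old copies are dense in heterochromatin around centromeres and on the small chromosome 4. The element 1360, also called hoppel, is related to the P element and can trigger silencing that needs heterochromatin protein 1. FB elements are bounded by long inverted repeats that in some copies flank NOF, which encodes a protein. The Tc1, Tc3, S, Bari, pogo and mariner2 elements belong to the Tc1/mariner superfamily.

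RNA came from heads of 3-day-old male Drosophila melanogaster, 50 heads pooled per replicate, in 4 groups of 3 libraries. In every group, the controls included, the neuronal nSyb driver expressed an inverted repeat whose transcript folds into a hairpin and triggers RNA interference in neurons. The hairpin matched mCherry in NTC IR-1 (genotype nSyb>mCherry IR), dYEATS2 in dYEATS2-IR, Luciferase in NTC IR-2 and dENL/AF9 in dENL/AF9-IR. mCherry and Luciferase are not fly genes, so both NTC groups are non-targeting controls, and dYEATS2 and dENL/AF9 encode readers of acylated histones. A head also holds glia, fat body, muscle and cuticle, in which this driver is not active. Fly stocks behind the groups are not given in the sources used here, and the word young appears in the sample titles of NTC IR-2 and of dENL/AF9-IR alone.

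Total counts ran from 30298251 to 54132559 per library, and the mitochondrial large ribosomal RNA took 14.8% to 32.3% of them. CPM (counts per 1000000) here is a row's count relative to the library's total after scaling by edgeR's trimmed mean of M-values. Group names below follow the table of raw counts. In the authors' normalized table every library stands under another group's name: the columns called NTC IR-1 there match raw columns called NTC IR-2, the dYEATS2-IR columns match dENL/AF9-IR, the NTC IR-2 columns match dYEATS2-IR, and the dENL/AF9-IR columns match NTC IR-1. A direction between named groups therefore depends on which table is right, and the test for any difference among the 4 groups does not. The targeted genes were not called as different from their controls under the raw names: D12, the gene of dYEATS2, had 8.51 to 9.05 CPM in the knockdown and 7.94 to 9.75 in NTC IR-1, and ear, the gene of dENL/AF9, had 37.5 to 43.4 in dENL/AF9-IR and 34.99 to 49.7 in NTC IR-2. The NTC IR-1 libraries, labelled male, stood apart in the yolk protein gene Yp1, with 587 to 843 CPM against at most 0.488 elsewhere. In dYEATS2-IR the eye pigment transporter gene w was at 3215 to 4312 CPM against at most 43.7 elsewhere, the cuticle pigment gene y was at most 0.421 against at least 31.7, and mthl8 was at 39.8 to 51.2 against 0 counts.

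The 978 insertions together made up 133 to 211 CPM, or 0.0133% to 0.0206% of a library's counts. At least 1 count was found for 744 of them, at least 10 counts over all libraries for 463, and at least 10 counts in every library for 43. The filter on low counts left 125 insertions to test and 853 untested, none of which had more than 94 counts in all. One count was worth 0.0189 to 0.0343 CPM, and a count of 0 allows up to 3 counts, or 0.0566 to 0.103 CPM; these limits cover counting error only. Counts were concentrated in few insertions: the highest 4 held 30.4% of all member counts and the highest 10 held 45.0%.

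By family, 1360 was the largest group, with 493 insertions and 44.8% of the counts, followed over all libraries by hopper2 with 14 insertions and 10.3%, mariner2 with 23 and 9.34%, and FB with 61 and 7.13%. The 1360 total was the highest in each of the 12 libraries, but the order below it changed between them. In NTC IR-1 the mean of mariner2, 18.3 ± 3.16 CPM (SD, n = 3), was above that of hopper2, 11.9 ± 1.77, and FB owed its place to libraries of 28.4 and 30.1 CPM against 6.36 to 13.9 in the other 10. HB (61 insertions), Tc3 (19), Tc1 (31) and hopper (27) held 3.65% to 5.53% each. The other 12 families held at most 2.32% each, down to looper1 with 86 counts over 4 insertions. In several families 1 insertion carried most of the counts: hopper2{}4186 held 97.5% of hopper2, mariner2{}1523 held 88.7% of mariner2 and Tc3{}5453 held 64.9% of Tc3. Within 1360 the top insertion, 1360{}1514, held 18.8%. Insertions were from 1 to 16462 bp long in the annotation BDGP6.54, with a median of 1012.5 bp, and the longest was NOF{}1599.

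Counts were spread unevenly over the genome. Chromosome 4 held 104 insertions, 10.6% of the 978, but 42.9% of their counts and 35 of the 125 tested. On the Y chromosome 61 insertions held 0.351% of the counts and none passed the filter. Of the 416 insertions inside introns, 203 lay on the strand of the host gene and 213 on the opposite strand. The same-strand group held 32.9% of the counts and 51 tested insertions, the opposite-strand group 6.35% and 18. Insertions between genes were 482 and held 42.4% of the counts, and the 80 that overlap an exon held 18.4%. How the counting program assigned reads that match an insertion and its host gene, or several copies of a family, is not given in the sources used here, so levels of single insertions in introns and exons are uncertain.

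**Figure D1:**
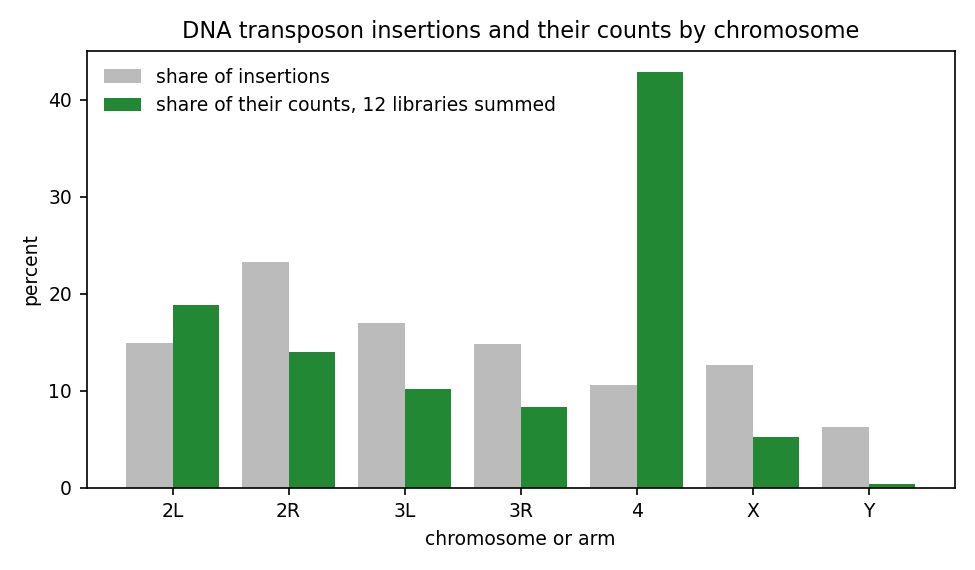
Share of the 978 DNA transposon insertions (grey bars) and of their counts summed over the 12 libraries (green bars), in percent, by chromosome or chromosome arm. Chromosome 4 holds 10.6% of the insertions and 42.9% of the counts, and the Y chromosome 0.351% of the counts; 4 insertions on other scaffolds are not drawn.

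The insertion of the highest mean level over the 12 libraries, hopper2{}4186 with 16.99 CPM, ranked first in 4 of them. In 5 others the first was mariner2{}1523, in 2 it was 1360{}1514 and in 1 FB{}1604. hopper2{}4186 is 606 bp long and lies on 2L from 21385964 to 21386569, in an intron and on the strand of nrv3, a neuronal subunit of the sodium pump. Per kilobase it was at 28.04 CPM over all libraries, ahead of mariner2{}1523 at 18.9, hopper{}4172 at 15.2 and 1360{}1514 at 12.96 on the same scale. Its level was 11.0, 10.2 and 13.6 CPM in NTC IR-1, 16.0, 20.6 and 15.9 in dYEATS2-IR, 11.4, 23.0 and 21.2 in NTC IR-2, followed by 20.5, 20.02 and 20.6 in dENL/AF9-IR. NTC IR-1 was below both knockdown groups in every library and overlapped NTC IR-2, and the difference among groups was not called. The host gene nrv3 was at 1663 ± 346 CPM (SD, n = 3) in NTC IR-1, 2063 ± 320 in dYEATS2-IR, 3616 ± 204 in NTC IR-2 and 3629 ± 197 in dENL/AF9-IR. Of the others among the 10 of highest mean level, 7 lie on chromosome 4: mariner2{}1523, 760 bp from gw, an Argonaute partner needed for microRNA silencing; 1360{}1539 at the edge of an unc-13 exon; Tc3{}5453, 138 bp from the kinesin gene Kif3C; Tc1{}1544, 345 bp from 4E-T; 1360{}4077 in a PIP4K intron; and 1360{}1514 and 1360{}1515. Between libraries mariner2{}1523 varied from 9.15 to 18.1 CPM and 1360{}1539 from 3.66 to 7.90, with every pair of groups overlapping for 1360{}1539. On 2R, 1360{}5004 (4830361 to 4831949), which overlaps an exon of CG14464 on its strand, was at 2.82, 4.32 and 4.06 CPM in NTC IR-1, 2.37, 3.62 and 2.13 in dYEATS2-IR, 4.87, 4.70 and 4.91 in NTC IR-2, followed by 4.77, 5.30 and 3.81 in dENL/AF9-IR. NTC IR-2 lay above both NTC IR-1 and dYEATS2-IR without overlap, and the groups were not called as different (FDR 0.0762). The longest 1360 copy, 1360{}1533 of 7854 bp at MED26, stayed at 0.0586 to 0.479 CPM, and the longest NOF copy, NOF{}1599, at 0.469 to 2.02.

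Family totals, which do not change when reads are split among copies of a family, were tested for 19 of the 20 families. Any difference among the 4 groups was called for 2 of them, 1360 and NOF, where calling means an FDR below 0.05 and FDR is the Benjamini-Hochberg adjusted p of edgeR's quasi-likelihood F test over all rows. That is 10.5% of these families against 18.6% of all rows of the same fit and 40.0% of the 95 other transposable element family totals. The 1360 total was 62.6, 66.3 and 63.6 CPM in NTC IR-1, 53.2, 64.1 and 59.3 in dYEATS2-IR, 80.6, 102 and 86.6 in NTC IR-2, followed by 88.5, 93.5 and 86.1 in dENL/AF9-IR. The lowest value of NTC IR-2 or dENL/AF9-IR lay above the highest of NTC IR-1 or dYEATS2-IR, and the groups differed with an FDR of 0.00461. Between the controls the 1360 total was higher in NTC IR-2 by 0.49 on the log2 scale (SE 0.11, FDR 0.0101). Without NTC IR-1 replicate 1 that call was lost, with an FDR of 0.0522. Without its 2 most changed abundant copies, 1360{}1514 and 1360{}1515, the total was 51.9 to 59.4 CPM in NTC IR-1, 46.1 to 53.5 in dYEATS2-IR, 61.7 to 73.3 in NTC IR-2 and 60.6 to 66.02 in dENL/AF9-IR, with no overlap between the same 2 sets of 6.

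The NOF total was 1.28, 0.894 and 1.06 CPM in NTC IR-1, 0.498, 0.929 and 0.729 in dYEATS2-IR, 2.54, 2.01 and 1.27 in NTC IR-2, followed by 1.40, 1.47 and 1.27 in dENL/AF9-IR. Its FDR of 0.0469 was lost in 11 of the 12 fits that leave out 1 library. Between the controls, 2 more totals rose in NTC IR-2 against NTC IR-1. The hopper total was 4.39 to 5.59 CPM in NTC IR-1 against 6.71 to 9.03 in NTC IR-2, with no overlap (log2 0.56, SE 0.17, FDR 0.0419). The HB total was 6.92 to 7.72 CPM in NTC IR-1 and 7.62, 16.9 and 12.3 in NTC IR-2, so the groups overlapped (log2 0.76, SE 0.24, FDR 0.0454). In the 12 fits that leave out 1 library the hopper call was lost in 7 and the HB call in 10. The controls differed in 20.2% of all rows of that fit. No family total was called in either knockdown comparison, against 3.2% of all rows for dYEATS2-IR and 0.0% for dENL/AF9-IR; at an unadjusted p below 0.05 there were 5 in dYEATS2-IR against NTC IR-1 (26.3%, against 20.4% of all rows) and 2 between dENL/AF9-IR and NTC IR-2 (10.5%, against 4.18%).

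**Figure D2:**
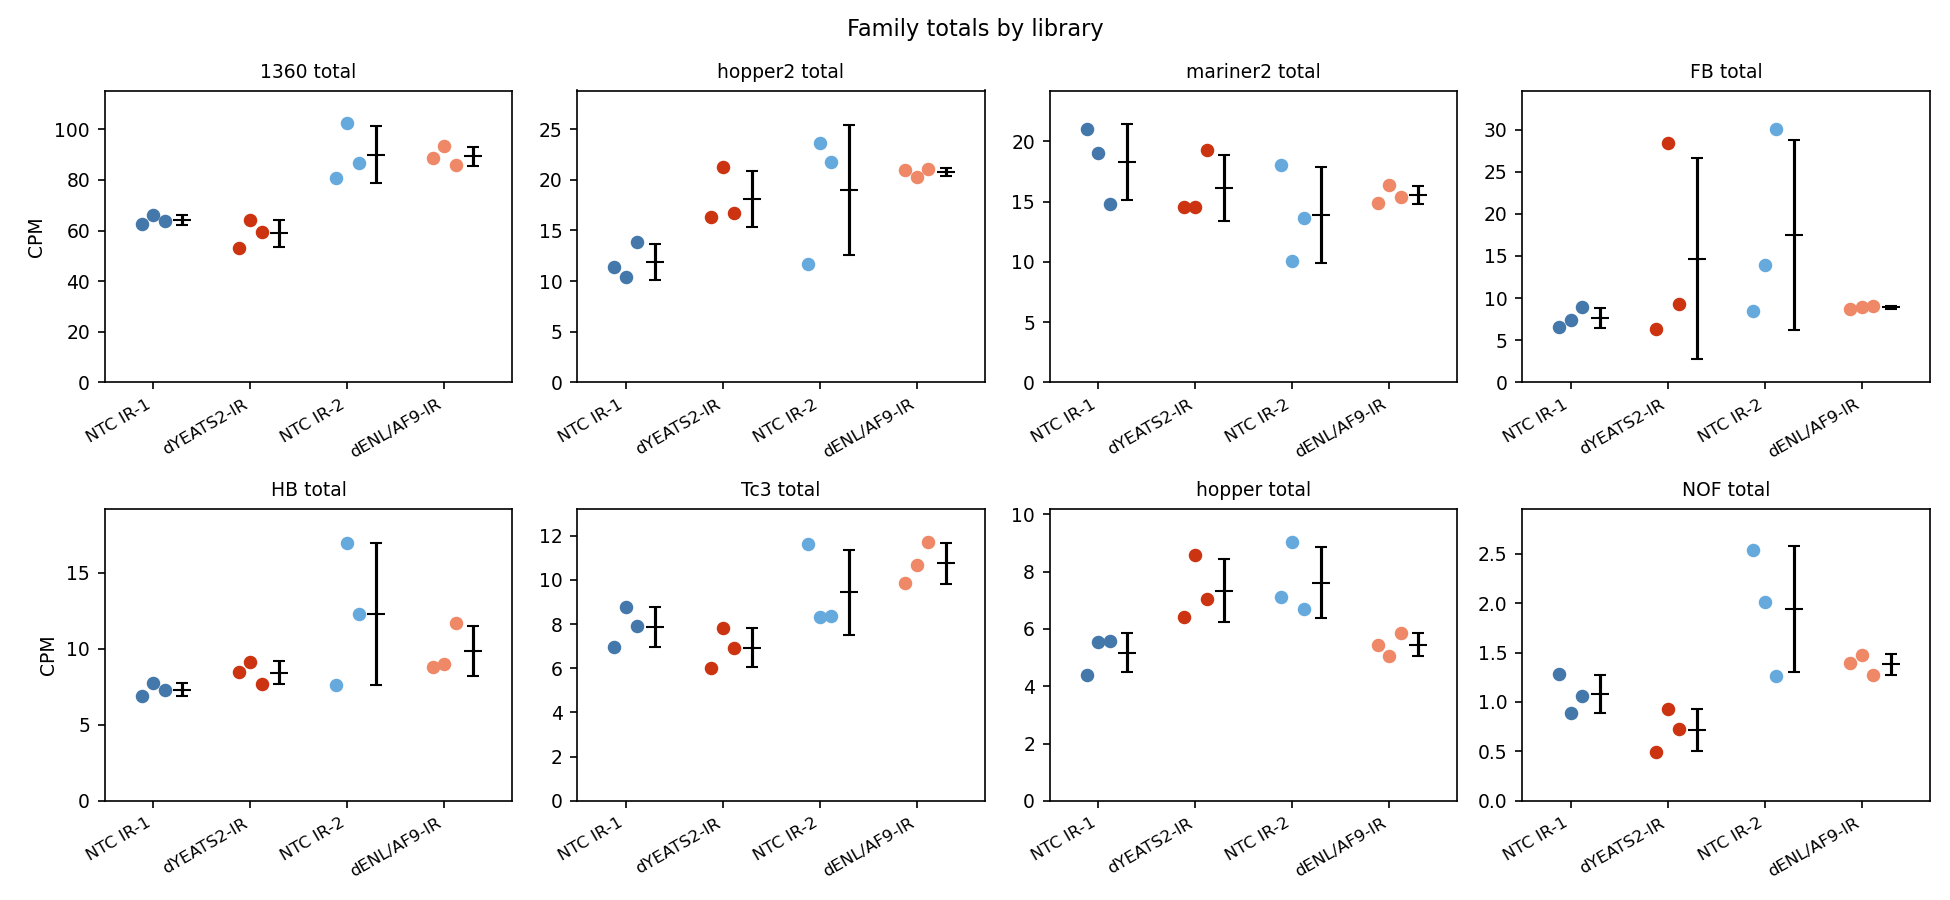
Total level of 8 families in each of the 12 libraries, in CPM. Points are libraries, coloured by group, and black marks show the mean ± SD of each group of 3. The 1360 total lies between 80.6 and 102 CPM in NTC IR-2 and dENL/AF9-IR and between 53.2 and 66.3 in the other 2 groups; the FB total has 1 high library each in dYEATS2-IR and NTC IR-2.

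Among single insertions, 20 of 125 differed among the 4 groups (16.0%), against 19.6% of all rows tested, 19.2% of genes and 24.0% of the other transposable element insertions. Of the 20, 11 are 1360 copies (of 53 tested), 3 FB (of 10), 2 pogo (of 4), 2 hopper (of 8), 1 S2 (of 2) and 1 Bari1 (the only one tested). Of the 125, 5 reached the minimum of the filter on low counts in 1 group alone, and all 5 were called. The direction of their difference came with their being tested. The call was lost in none of the 12 fits that leave out 1 library for 12 of the 20. These 12 include pogo{}916, S2{}1603 and FB{}CG17600-FB-NOF, which are among those 5. Fits without NTC IR-1 replicate 1, without dYEATS2-IR replicate 1 and without dYEATS2-IR replicate 3 called 13 insertions each, of 156, 161 and 154 tested. With the whole NTC IR-1 group left out, 10 of 99 tested were called. The share of all rows called in these fits is not given here.

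**Figure D3:**
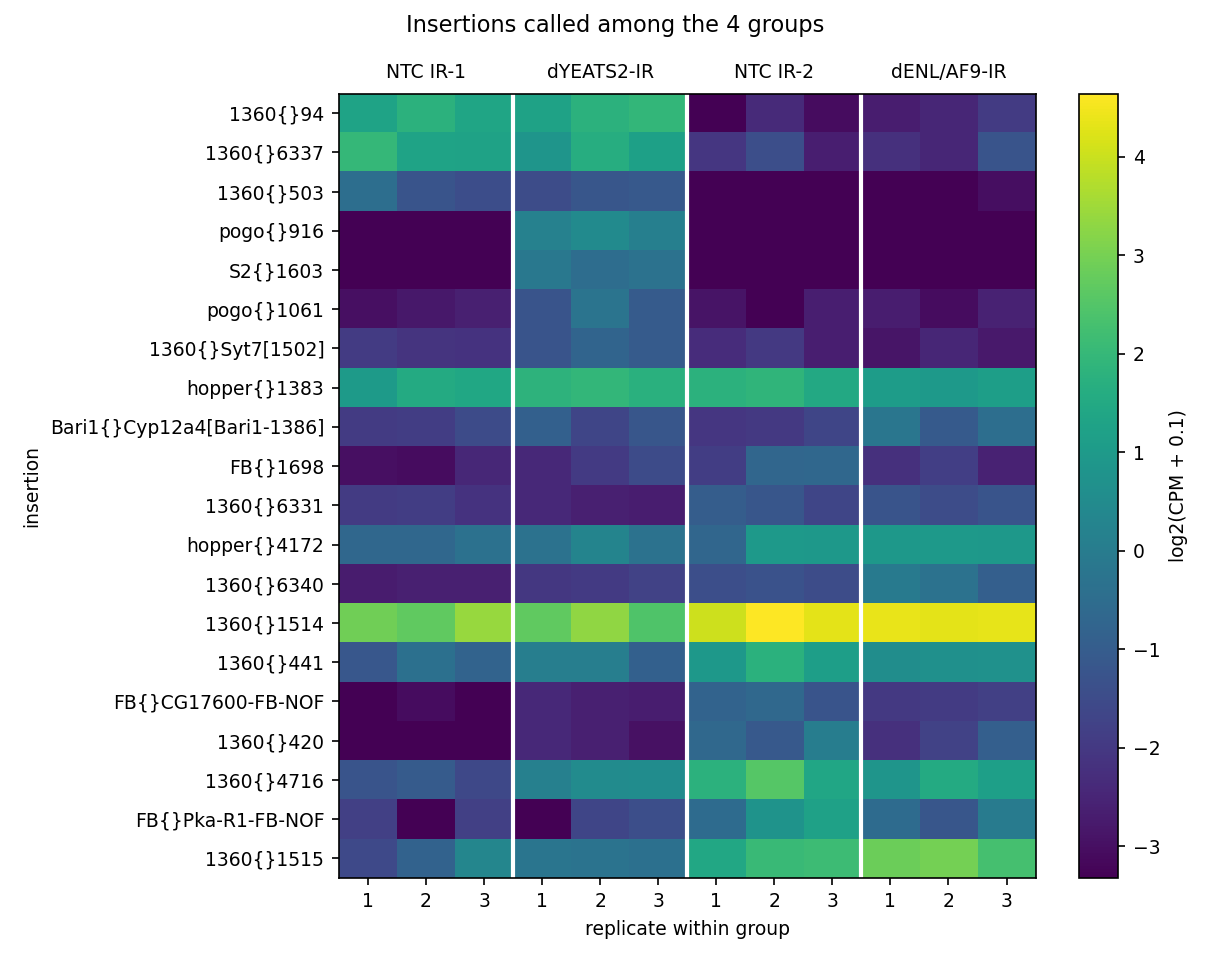
Level of the 20 insertions that differed among the 4 groups, as log2(CPM + 0.1), in each of the 12 libraries. Rows are insertions, columns are libraries, and white lines separate the groups. The top 3 rows are high in NTC IR-1 and dYEATS2-IR, the next 4 are highest in dYEATS2-IR, and most rows below are higher in NTC IR-2 and dENL/AF9-IR.

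A first set was higher in NTC IR-2 and dENL/AF9-IR. For 13 of the 125 insertions (10.4%) all 6 libraries of these groups lay above all 6 of the others, a pattern held by 5.76% of all rows tested; 9 of the 13 were among the called. On chromosome 4, 1360{}1514 (454066 to 455145) and 1360{}1515 (456757 to 457862) lie on the plus strand between CaMKI, a calcium-dependent protein kinase gene that ends 119 bp before 1360{}1514, and Taf3, which encodes a subunit of the general transcription factor TFIID. The level of 1360{}1514 was 7.51, 6.45 and 10.6 CPM in NTC IR-1, 6.36, 9.90 and 5.36 in dYEATS2-IR, 16.3, 24.9 and 19.98 in NTC IR-2, followed by 20.8, 19.7 and 20.1 in dENL/AF9-IR. It rose in NTC IR-2 against NTC IR-1 by 1.32 on the log2 scale (SE 0.24, FDR 0.00573). Its neighbour 1360{}1515 was at 0.240, 0.468 and 1.16 CPM in NTC IR-1, 0.762, 0.712 and 0.673 in dYEATS2-IR, 2.64, 4.15 and 4.35 in NTC IR-2, followed by 7.11, 7.77 and 4.79 in dENL/AF9-IR, a rise of 2.55 between the controls (SE 0.45, FDR 0.00479).

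The dENL/AF9-IR libraries were above those of NTC IR-2 for 1360{}1515 with no overlap, but that difference had an FDR of 1.0 (log2 0.82, SE 0.41). The flanking genes were not called: CaMKI was at 347 ± 30.2 CPM in NTC IR-1 and 404 ± 50.8 in NTC IR-2 (SD, n = 3; edgeR FDR 0.160 over the 4 groups), and Taf3 at 169 ± 11.1 and 204 ± 29.7 (edgeR FDR 0.0997). The nearest annotated gene to 1360{}1515, asRNA:CR45126, 1906 bp away, differed among the groups (edgeR FDR 0.0192), with 4.65 ± 0.240 CPM in NTC IR-1, 3.68 ± 0.470 in dYEATS2-IR, 6.59 ± 1.31 in NTC IR-2 and 6.17 ± 0.614 in dENL/AF9-IR.

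On 2L, between 19737411 and 20210865, lie 4 insertions of 1360 called between the controls, all higher in NTC IR-2: 1360{}420, 1360{}441, 1360{}4113 and 1360{}4716. Outside this stretch but also on 2L, the copy 1360{}503 was called lower in NTC IR-2 (log2 -7.08, edgeR FDR 0.00503). This stretch was singled out after the values were seen. It runs from the start of 1360{}420 to the end of 1360{}4716, so it was drawn around copies higher in NTC IR-2. Their shared direction therefore came with the choice of the stretch. Of its 22 DNA transposon insertions 5 were tested, and the remaining one, S{}447, was not called; of the 32 genes tested there, 4 rose and 4 fell. The copy 1360{}4716 (minus strand, 1424 bp) was at 0.320, 0.383 and 0.229 CPM in NTC IR-1, 0.996, 1.33 and 1.37 in dYEATS2-IR, 3.40, 5.67 and 2.51 in NTC IR-2, followed by 1.68, 2.85 and 2.16 in dENL/AF9-IR. NTC IR-1 was lowest and dYEATS2-IR next, with no overlap with any other group, while NTC IR-2 and dENL/AF9-IR overlapped. It rose by 3.62 on the log2 scale between the controls (SE 0.38, FDR 0.000683). The copy 1360{}420 had no count in NTC IR-1, 3, 2 and 1 counts in dYEATS2-IR, 16, 12 and 48 in NTC IR-2, followed by 6, 10 and 19 in dENL/AF9-IR; in NTC IR-2 it was at least 7.78-fold higher than the limit of 3 counts per library allows for NTC IR-1. The levels of 1360{}441 were 0.346 to 0.660 CPM in NTC IR-1, 0.449 to 0.967 in dYEATS2-IR, 1.82 to 3.26 in NTC IR-2 and 1.40 to 1.54 in dENL/AF9-IR.

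A pair of FB copies and 1360{}6340 belong to the same set. FB{}CG17600-FB-NOF, on the X chromosome from 22522683 to 22525440 in an intron of CG17600 and opposite to it, had 0, 1 and 0 counts in NTC IR-1, 3, 2 and 2 in dYEATS2-IR, 14, 18 and 16 in NTC IR-2, followed by 8, 8 and 8 in dENL/AF9-IR. No groups overlapped in CPM, and the FDR over the 4 groups was 0.00400; it passed the filter on low counts through NTC IR-2 alone. FB{}Pka-R1-FB-NOF, opposite to its host Pka-R1, a regulatory subunit of protein kinase A, was at 0 to 0.187 CPM in NTC IR-1, 0 to 0.281 in dYEATS2-IR, 0.583 to 2.24 in NTC IR-2 and 0.339 to 0.886 in dENL/AF9-IR, and its call was lost in 11 of the 12 fits without 1 library. The NOF rows annotated inside these 2 FB copies overlap them, so their reads may be shared. For 1360{}6340, on 2R from 2586087 to 2587192, the groups followed each other without overlap: 0.0533 to 0.0638 CPM in NTC IR-1, 0.147 to 0.196 in dYEATS2-IR, 0.257 to 0.305 in NTC IR-2 and 0.431 to 0.849 in dENL/AF9-IR (FDR 0.00299).

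A second set went the other way. In 3 of the 125 insertions (2.4%, against 3.24% of all rows tested) the 6 libraries from NTC IR-2 and dENL/AF9-IR all lay below all 6 of the other groups, and all 3 are called 1360 copies. The smallest p of the 125 was that of 1360{}94, on the X chromosome from 10101814 to 10102819 on the minus strand. It had 88, 159 and 119 counts in NTC IR-1, 79, 110 and 135 in dYEATS2-IR, 0, 3 and 1 in NTC IR-2, followed by 3, 4 and 7 in dENL/AF9-IR. In CPM this was 2.73 ± 0.566 in NTC IR-1, 3.17 ± 0.764 in dYEATS2-IR, 0.0371 ± 0.0482 in NTC IR-2 and 0.0984 ± 0.0537 in dENL/AF9-IR (SD, n = 3; FDR 7.48e-05 over the 4 groups).

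On 2R, 1360{}6337 (2259536 to 2260657) lies in an intron of CG17684 on the gene's strand. It was at 3.86, 2.38 and 2.33 CPM in NTC IR-1, 1.70, 3.03 and 2.22 in dYEATS2-IR, 0.137, 0.275 and 0.0593 in NTC IR-2, followed by 0.113, 0.0797 and 0.318 in dENL/AF9-IR, and it fell by 4.23 between the controls (SE 0.58, FDR 0.00170). The host gene CG17684 was at 53.6 ± 0.810 CPM in NTC IR-1, 32.1 ± 1.98 in dYEATS2-IR, 65.8 ± 10.3 in NTC IR-2 and 72.9 ± 2.85 in dENL/AF9-IR, lowest in dYEATS2-IR (log2 -0.74 against NTC IR-1, FDR 0.00415). The remaining copy, 1360{}503, lies on 2L from 21571788 to 21572326, 1063 bp before Lamp1, a lysosomal membrane protein gene. It had 24, 15 and 13 counts in NTC IR-1, 9, 11 and 13 in dYEATS2-IR, none in NTC IR-2, and 1 in a single dENL/AF9-IR library. In NTC IR-1 its mean was at least 3.98-fold higher than 3 counts per library would give in NTC IR-2.

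Another set was highest in dYEATS2-IR. All 3 dYEATS2-IR libraries lay above the other 9 for 4 insertions (3.2%, against 3.41% of all rows tested), all of them called. All 4 reached the minimum of the filter on low counts through dYEATS2-IR alone, so a difference in this direction came with their being tested. pogo{}916, a 183 bp remnant on 3L from 3051802 to 3051984, 37 bp after the end of CG32485 and on its strand, had 35, 42 and 35 counts in dYEATS2-IR and 0 in all 9 other libraries. Its level in dYEATS2-IR, 1.102 ± 0.173 CPM, was at least 13.8-fold higher than 3 counts per library in NTC IR-1, at least 10.7-fold higher than in NTC IR-2 and at least 16.2-fold higher than in dENL/AF9-IR. CG32485 was not called in any comparison and was at 45.1 to 64.6 CPM in the 12 libraries. On the other side of pogo{}916, CG1271 starts at 3052514 on the same strand and differed among the 4 groups (edgeR FDR 0.00615). Its lowest dYEATS2-IR library had 13.7 CPM, above the highest of the other 9, which had 12.7. The difference of CG1271 between dYEATS2-IR and NTC IR-1 was not called (log2 0.34, edgeR FDR 0.168). S2{}1603, 989 bp on 3L from 23080432 to 23081420 and 11770 bp from the ribosomal protein gene RpL10, had 28, 20 and 25 counts in dYEATS2-IR and again 0 in the other 9. The matching bounds were at least 8.93-fold, 6.93-fold and 10.5-fold.

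pogo{}1061, a 1067 bp copy in an intron of rdgC, a gene for a calcium-dependent phosphatase of photoreceptors, had 11, 24 and 14 counts in dYEATS2-IR and 0 to 3 in each of the others. It rose against NTC IR-1 by 3.35 on the log2 scale (SE 0.74, FDR 0.0297); its FDR over the 4 groups, 0.00748, was 0.0517 without dYEATS2-IR replicate 2. rdgC itself was at 196 ± 32.8 CPM in NTC IR-1, 296 ± 9.53 in dYEATS2-IR, 333 ± 21.8 in NTC IR-2 and 304 ± 12.6 in dENL/AF9-IR. On chromosome 4, 1360{}Syt7[1502], opposite to the synaptotagmin gene Syt7 in an intron, was at 0.322 to 0.495 CPM in dYEATS2-IR against 0.0377 to 0.160 in the other 9 libraries (FDR 0.0151). That call was lost without NTC IR-1 replicate 1 (0.0507) and without each dYEATS2-IR library (0.0525, 0.0754 and 0.0592 for replicates 1, 2 and 3). Whether the flies of each group carried the insertions with 0 counts was not tested; mthl8 likewise had counts in dYEATS2-IR and none in the other 9 libraries.

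**Figure D4:**
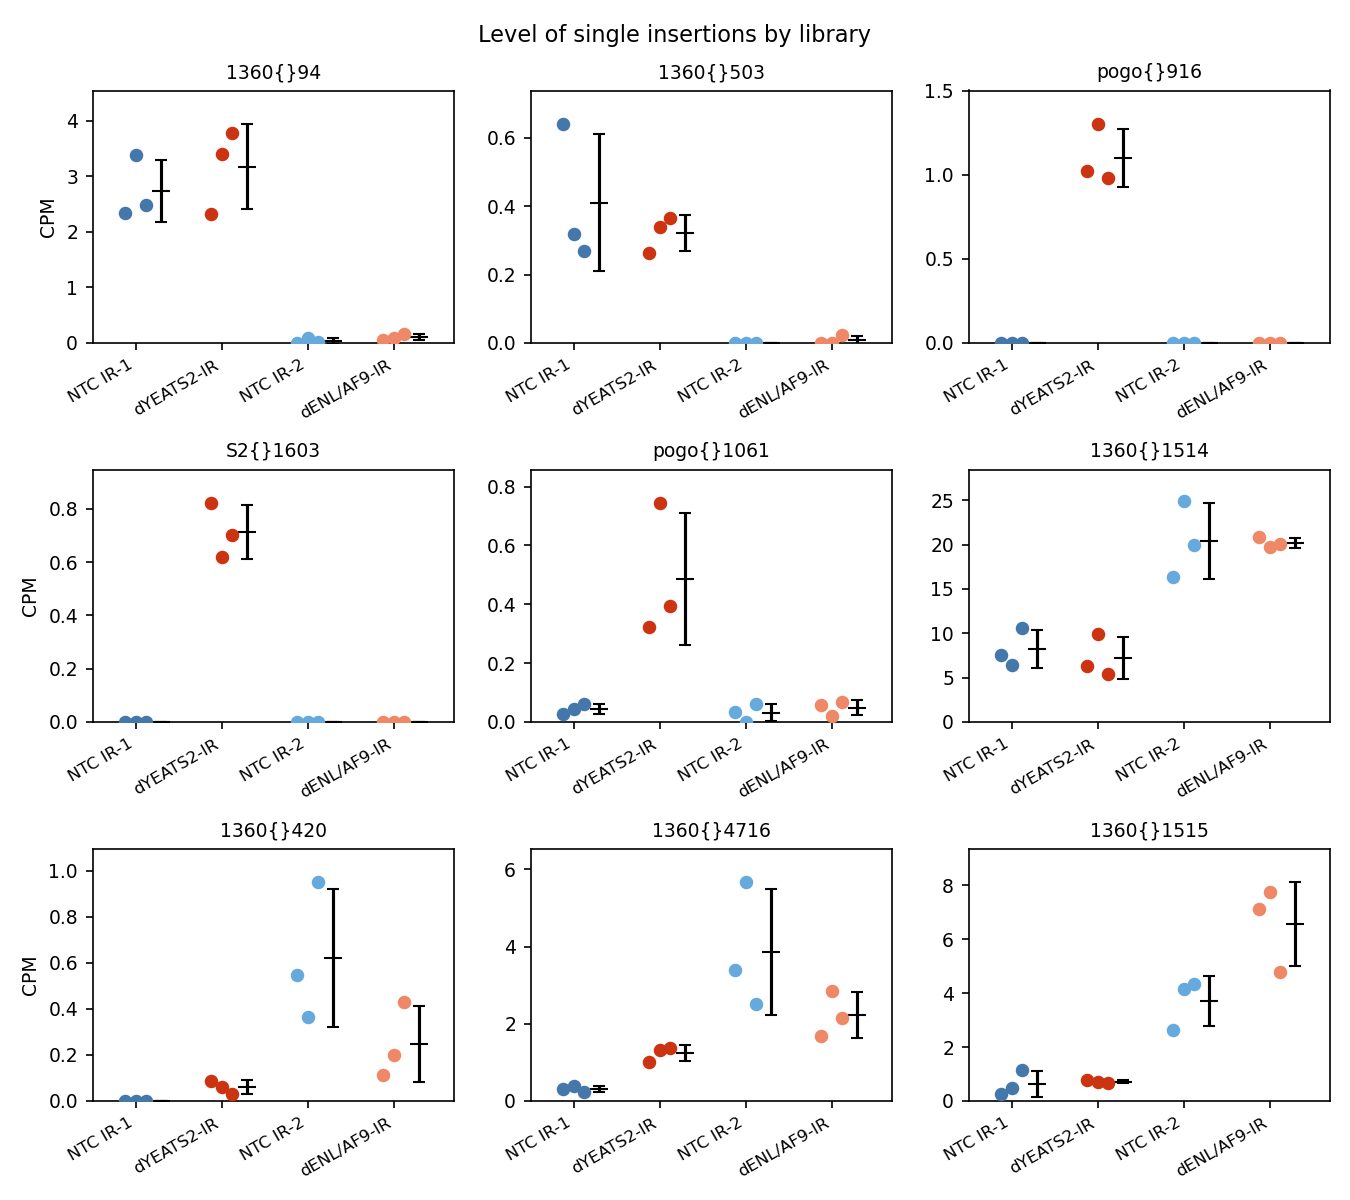
Level of 9 insertions in each of the 12 libraries, in CPM. Points are libraries, coloured by group, and black marks show the mean ± SD of each group of 3. pogo{}916 and S2{}1603 are at 0 in 9 libraries, 1360{}94 and 1360{}503 are at or near 0 in NTC IR-2 and dENL/AF9-IR, and 1360{}1514 and 1360{}1515 are higher in these groups.

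The remaining 6 calls had an FDR between 0.0302 and 0.0492. Bari1{}Cyp12a4[Bari1-1386], the longest Bari1 copy in the table, on 3R whose first bases overlap the last exon of the cytochrome P450 gene Cyp12a4, had 41, 19 and 28 counts in dENL/AF9-IR and 4 to 15 elsewhere (FDR 0.0397). hopper{}1383, in an intron of CG15803, was at 3.47 ± 0.274 CPM in dYEATS2-IR and 3.22 ± 0.438 in NTC IR-2, above 1.98 ± 0.140 in dENL/AF9-IR and 2.45 ± 0.456 in NTC IR-1 (FDR 0.0403). hopper{}4172, a 76 bp fragment in an nrv3 intron like hopper2{}4186, was at 0.532 to 0.686 CPM in NTC IR-1 against 1.81 to 1.83 in dENL/AF9-IR (FDR 0.0492). FB{}1698, opposite to the insulin receptor gene InR in an intron, was at 0.0213 to 0.0832 CPM in NTC IR-1 against 0.172 to 0.534 in NTC IR-2 (FDR 0.0415). 1360{}6331, in an intron of Maf1, was at 0.0561 to 0.0879 CPM in dYEATS2-IR, below the other 9 libraries (FDR 0.0302). The sixth is FB{}Pka-R1-FB-NOF, above. Each of these 6 calls was lost in 9 to 11 of the fits that leave out 1 library, with an FDR of at most 0.155.

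In dYEATS2-IR against NTC IR-1, 4 of 125 insertions were called, all higher in dYEATS2-IR: pogo{}916, S2{}1603, pogo{}1061 and 1360{}4716. This is 3.2%, against 4.77% of all rows tested (2.42% higher and 2.35% lower). The first 3 reached the minimum of the filter on low counts in dYEATS2-IR alone, so their direction was fixed by their being tested; at a mean count of at least 10 only 1360{}4716 of the 4 was tested, and the count was 1. Among the other transposable element insertions 2.53% rose and 9.45% fell. The median log2 difference of the 125 was -0.12, that of all rows -0.02. The count was 1 without NTC IR-1 replicate 1, 2 without NTC IR-1 replicate 2, 1 without dYEATS2-IR replicate 1, 0 without dYEATS2-IR replicate 2 and 1 without dYEATS2-IR replicate 3. These fits tested 130 to 161 insertions, and the share of all rows called in them is not given here. In the fit of all 12 libraries the count was 4. Under the group names of the normalized table it was 0, but there this compares the libraries called dENL/AF9-IR and NTC IR-2 above. That count is therefore the one of the next comparison. With NTC IR-2 as its control instead, 14 were called (11.2%, against 9.17% of all rows tested), 7 higher (5.6%, against 3.85%) and 7 lower (5.6%, against 5.32%). The insertion 1360{}4716, higher in dYEATS2-IR against NTC IR-1, was among the 7 lower there (log2 -1.64, edgeR FDR 0.0149).

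Between dENL/AF9-IR and NTC IR-2, neither edgeR nor DESeq2 called an insertion, and 0.0% of all rows were by edgeR; at an unadjusted p below 0.05 edgeR gave 10 insertions and 661 rows. The median log2 difference of the 125 was -0.07 and that of all rows -0.00114. Under the names of the normalized table, where this compares the libraries called NTC IR-1 and dYEATS2-IR above, there were 4 calls, all lower. These are the 4 calls of dYEATS2-IR against NTC IR-1 with the sign turned. Against NTC IR-1, 14 were called (11.2%, against 15.6% of all rows tested), 11 higher (8.8%, against 8.67%) and 3 lower (2.4%, against 6.92%).

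Between the 2 controls, 16 of 125 were called (12.8%, against 19.5% of all rows tested), 13 higher in NTC IR-2 (10.4%, against 10.3%) and 3 lower (2.4%, against 9.16%). Among the 13, FB{}CG17600-FB-NOF passed the filter on low counts through NTC IR-2 alone, so its direction came with its being tested. Besides those above, Tc1{}1544 was at 2.38 ± 0.212 CPM in NTC IR-1 and 3.86 ± 0.122 in NTC IR-2 (log2 0.70, SE 0.17, FDR 0.0172), and 1360{}4113, FB{}nmo-FB-NOF in an intron of the kinase gene nmo and HB{}484 in an intron of the nuclear receptor gene Hr39 rose by 1.46, 2.07 and 1.32. These 4 calls were lost in 1, 2, 8 and 9 of the fits without 1 library. The median log2 difference was 0.37 over the 125 and -0.04 over all rows, and 88 of the 125 (70.4%) were above 0 against 47.1% of all rows. These values describe only the insertions that passed the filter. With no filter the median was 0.01 over 744 insertions and -0.098 over all rows of that fit. The count was 25 of 160 tested without NTC IR-2 replicate 1 and 10 of 156 without NTC IR-2 replicate 2, and 9 of 84 when only these 6 libraries were fitted. For these 3 fits the share of all rows called is not given here. The direction depends on the names: under those of the normalized table, where this compares the libraries called dYEATS2-IR and NTC IR-2 above, 14 were called, 7 higher and 7 lower, and the median was -0.40 over the 125 and 0.01 over all rows.

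The dYEATS2-IR and dENL/AF9-IR effects, each against its own control, differed for 1360{}4716 alone among the 125 (0.8%, against 0.932% of all rows tested). Its log2 difference was 1.98 in dYEATS2-IR against NTC IR-1 (SE 0.37) and -0.79 between dENL/AF9-IR and NTC IR-2 (SE 0.33), and the difference between both was 2.77 (SE 0.50, FDR 0.0255). The call was lost without NTC IR-1 replicate 1 or 2, dYEATS2-IR replicate 2 or 3, NTC IR-2 replicate 2, or dENL/AF9-IR replicate 1 or 3, with an FDR of 0.0511 to 0.0755.

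One abundant insertion varied within groups rather than between them. FB{}1604, 8160 bp on 3L from 22743571 to 22751730, overlaps the 3' part of CG7369 by 5044 bp and the start of SPoCk, a calcium pump gene of the secretory pathway, by 2287 bp, on the strand of both. Its level was 24.0 CPM in dYEATS2-IR replicate 2 and 20.6 in NTC IR-2 replicate 3, and at 1.84 to 4.46 in the other 10 libraries. CG7369 was lowest in those same libraries, at 20.6 and 20.2 CPM, and at 27.9 to 36.8 in the other 10. SPoCk was at 421 CPM in dYEATS2-IR replicate 2 against 365 and 449 in that group's other libraries, and 587 in NTC IR-2 replicate 3 against 573 and 597. These neighbours were chosen after the values of FB{}1604 were seen. Without FB{}1604 the FB total ran from 3.52 to 4.85 CPM in NTC IR-1 and dYEATS2-IR and from 5.68 to 9.73 in NTC IR-2 and dENL/AF9-IR.

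**Figure D5:**
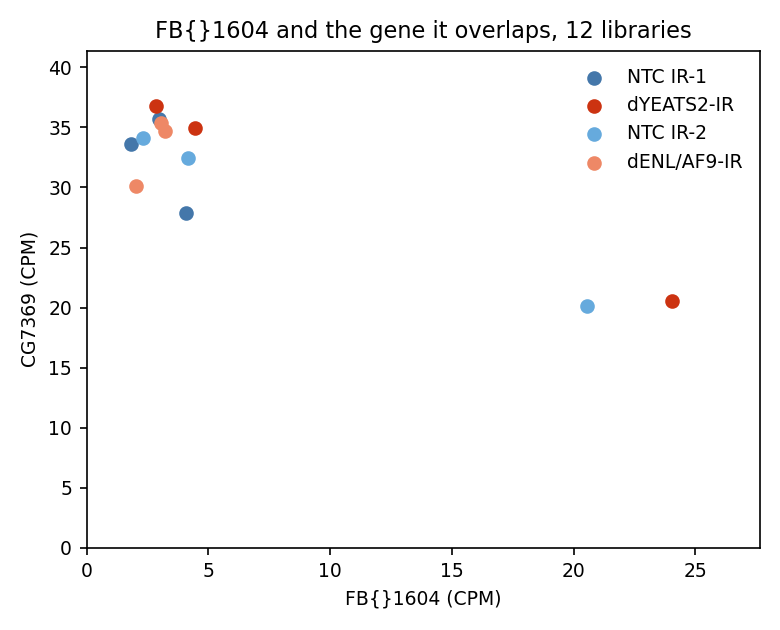
Level of FB{}1604 (horizontal axis) and of CG7369, the gene whose 3' part it overlaps (vertical axis), both in CPM; each point is 1 of the 12 libraries, coloured by group. The library of dYEATS2-IR at 24.0 CPM and that of NTC IR-2 at 20.6 CPM of FB{}1604 have the lowest CG7369 levels.

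Host genes were set beside the insertions in their introns. For the 50 tested same-strand intronic insertions whose 44 host genes were also tested, the log2 difference between the controls had the sign of the host's in 34, with Pearson's r 0.152 and Spearman's rho 0.145 across insertions. For the 16 opposite-strand ones (15 hosts) the sign was shared in 10, with r -0.293 and rho -0.15. In dYEATS2-IR against NTC IR-1 it was shared in 32 of the 50 (r 0.193, rho 0.243) and 8 of the 16 (r -0.229, rho -0.197). Between dENL/AF9-IR and NTC IR-2 it was shared in 28 of the 50 (r 0.0342, rho 0.00754) and 12 of the 16 (r 0.52, rho 0.522). These values describe insertions, which share libraries and in part hosts and are not replicates.

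The gene lists cover pathways that act on transposons. Over the 4 groups 19.2% of genes were called, and lists this short give no share that can be told from it. Of 5 tested siRNA genes none was called. Of 23 piRNA genes 1 was called, AGO3, a Piwi-clade Argonaute, at 2.98, 2.36 and 0.915 CPM in NTC IR-1 and 0.279 to 0.785 in the other 9 libraries (edgeR FDR 0.0153). Of 13 heterochromatin genes 1 was called, lolal, at 131 ± 2.13 CPM in NTC IR-1 and 177 ± 16.9 in NTC IR-2 (edgeR FDR 0.0146). Of 11 genes of DNA end joining and repair, which mends the gap a cut-out transposon leaves, 2 were called. Ku80, which binds broken ends, was at 25.6, 25.8 and 5.97 CPM in NTC IR-1 against 3.33 to 9.23 elsewhere (edgeR FDR 0.0213). mre11, a nuclease subunit, was at 24.1 ± 7.00 CPM in NTC IR-1, 22.4 ± 5.99 in dYEATS2-IR, 12.9 ± 3.00 in NTC IR-2 and 12.1 ± 0.163 in dENL/AF9-IR (edgeR FDR 0.0215). Between the controls the list medians were -0.23, -0.25, 0.03 and -0.28 on the log2 scale in this order, beside -0.04 for all rows. The controls comparison, with 20.1% of genes called, called 1 siRNA gene (higher in NTC IR-2), 2 piRNA genes (lower), 1 heterochromatin gene (higher) and 3 repair genes (lower). Those called there and not over the 4 groups, named after their values were seen, were r2d2, a partner of Dicer-2 (log2 0.35, FDR 0.0291), nxf2, a piRNA factor (log2 -1.95, FDR 0.0455), and rad50, a partner of mre11 (log2 -0.91, FDR 0.0456), in the same edgeR fit.

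Marker genes of cell types differed between groups too, in several patterns. The summed level of 6 neuronal markers was 4456 to 5889 CPM in NTC IR-1, 5459 to 6877 in dYEATS2-IR, 8243 to 9725 in NTC IR-2 and 8441 to 9572 in dENL/AF9-IR, and 4 of the 6 were called over the 4 groups; NTC IR-2 and dENL/AF9-IR lay above the other 2 groups without overlap. The 6 fat body markers summed to 2088 to 2748 CPM in NTC IR-1, 338 to 473 in dYEATS2-IR, 309 to 468 in NTC IR-2 and 389 to 1024 in dENL/AF9-IR, with 4 of 6 called and NTC IR-1 alone apart. That gap in the sum depends on the yolk protein genes Yp1 and Yp2. Yp2 was at 216 to 366 CPM in NTC IR-1 and at most 1.12 elsewhere. The marker apolpp, not called, was at 518, 555 and 1176 CPM in NTC IR-1 and reached 907 in dENL/AF9-IR replicate 3. The 7 male germ line markers, of which bam had no count in any library, summed to 7.38 to 8.87 CPM in the first control and 2.07 to 6.07 elsewhere, with 2 of the 5 tested called. The 7 photoreceptor markers summed to 23490 to 38150 CPM in NTC IR-1, 44330 to 50130 in dYEATS2-IR, 30020 to 42720 in NTC IR-2 and 34000 to 51100 in dENL/AF9-IR. dYEATS2-IR lay above both controls, with 3 of the 7 called higher than in NTC IR-1 (median log2 0.73) and 4 called over the 4 groups. Sums of 5 glial and of 5 muscle markers overlapped between all groups, with 2 and 0 called. The glial sum is mostly Gs2 and Eaat1, which were not called, nor was moody. The called glial markers were alrm and repo. The level of alrm was 31.9 ± 5.24 CPM in NTC IR-1, 16.6 ± 3.32 in dYEATS2-IR, 4.76 ± 2.44 in NTC IR-2 and 8.16 ± 0.796 in dENL/AF9-IR (edgeR FDR 0.000900), and repo was lowest in dENL/AF9-IR (edgeR FDR 0.0445). In RNA from whole heads, fewer cells of a type and less RNA per cell cannot be told apart, and the part of these markers in the levels of the insertions was not tested.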

How the data were processed

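Raw counts per gene and per transposable element insertion were deposited by the authors as 1 table. The authors deposited a second table with normalized signal per row, made per the file by multiplying each raw column by 1 factor. Only its names were used. Per the submitters' processing notes, FastQC 0.12.0, Trim Galore 0.6.5, HISAT2, SAMtools, UMI-tools, Picard and DESeq2 were used with BDGP6 and dm6; the counting program and its use of strand and of reads with several matches are not given in the sources used here. Libraries were strand-specific mRNA libraries, per the labels' protocols. Columns were assigned by library name; for replicates 1 and 2 of NTC IR-2 the labels name other libraries' columns.

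In R 4.3.3 with edgeR 4.0.16, filterByExpr on the 4 groups left 12661 rows, and all 12 libraries entered 1 TMM-scaled quasi-likelihood fit with 8 residual degrees of freedom. Tests were 1 joint comparison of the 4 groups, 4 contrasts, and the same on family totals (11581 rows). Standard errors are the log2 difference divided by the square root of F. Nothing says that replicates were separate crosses, so p-values measure the spread between these libraries. The fit was tested on simulated data. Alternatives were DESeq2 1.42.0 (test and size factors), other filters on low counts, the replicate number as a block, only the libraries compared, no exonic insertions, the normalized table's names, and leaving out each library. Positions come from BDGP6.54 (Ensembl), which named all 978 insertions; the authors' exact annotation is not given. Their sequences were not used here.

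Named were all insertions called in any comparison, the 10 of highest mean CPM, those with 0 counts in a group and at least 10 in each library of another, and the longest copy of each family whose total was called. Members, lists and markers were chosen with earlier results of these data known. The host gene of 1 named insertion is not reported here.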

Additional observations from a re-analysis of the deposited data

Results flagged for a closer look

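For 1360{}4716 on 2L, the dYEATS2-IR effect and the dENL/AF9-IR effect, each against its own control, differed in the test of the difference itself: it was 2.77 on the log2 scale (SE 0.50; edgeR FDR 0.0255). All 3 dYEATS2-IR libraries (34, 43 and 49 counts) were above the 3 of NTC IR-1 (12, 18 and 11), while the counts of dENL/AF9-IR (89, 143 and 95) and NTC IR-2 (99, 186 and 127) overlapped in CPM. With the replicate number as a block 1 insertion was called for this difference. Under the names used in the normalized table none was called, but there the contrast adds the 2 effects instead of subtracting them. That count is therefore no test of this difference.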

How the results depend on the processing

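Over the 4 groups, 20 insertions were called, 11 at a mean count of at least 10, 10 without the NTC IR-1 group and 13 to 22 when 1 library was left out. In every setting that tested them, 8 kept their call. Among the 8, pogo{}916 and FB{}CG17600-FB-NOF passed the filter on low counts through 1 group alone. Neither was tested at a mean count of at least 10. In dYEATS2-IR against NTC IR-1 the count of 4 became 1 at a mean count of at least 10, 0 under the names of the normalized table, 14 with NTC IR-2 as the control, and 0 to 6 without 1 library. Between dENL/AF9-IR and NTC IR-2 the 0 became 4 under those names and 14 with NTC IR-1 as the control, and stayed 0 without any 1 library. Under those names the 2 knockdown comparisons exchange their libraries, so each count repeats that of the other comparison. Between the controls the 16 became 9 with only the 6 libraries compared, where 84 were tested, and 10 to 25 without 1 library. With no filter the median was 0.01 over insertions and -0.098 over all rows, against 0.37 and -0.04 with the filter. The single call of a difference between both knockdown effects became 3 by DESeq2 and 0 to 1 without 1 library. Under those names the same contrast adds both effects, so its count of 0 does not concern their difference. The 2 family totals became 6 by DESeq2, 1 with no filter, 1 without the NTC IR-1 group and 1 to 4 without 1 library. Settings with another control or without NTC IR-1 were chosen after seeing the data. For fits without 1 library, with other filters or without NTC IR-1, the share of all rows called is not given. Same-numbered libraries did not deviate together (r -0.226 to 0.206, above 0.1 in 1 of 18 pairs), so numbers do not pair them; with the replicate block the counts were 13 over the 4 groups, 1 in dYEATS2-IR against NTC IR-1, 0 between dENL/AF9-IR and its control, 15 between the controls, 1 for the difference of effects, and 1 family total. With NTC IR-2 as the control of dYEATS2-IR, 1360{}4716 turned to lower in dYEATS2-IR (log2 -1.64, edgeR FDR 0.0149). Apart from that, directions reversed under the names of the normalized table and in no other setting run. There 15 of the 16 insertions called between the controls turned, with an FDR of 0.000179 (1360{}94), 0.00409 (1360{}6337), 0.00626 (1360{}1514), 0.0106 (1360{}1515 and 1360{}503), 0.0149 (1360{}4716), 0.0206 (1360{}441), 0.0226 (FB{}CG17600-FB-NOF), 0.0272 (1360{}420), 0.0655 (FB{}nmo-FB-NOF), 0.0656 (FB{}Pka-R1-FB-NOF), 0.0960 (1360{}4113), 0.238 (FB{}1698), 0.312 (1360{}6340) and 0.569 (Tc1{}1544). So did 1360{}4716 in dYEATS2-IR against NTC IR-1 (0.881) and the totals of 1360 (0.00825), HB (0.166) and hopper (0.852) between the controls, whose calls became 14, 7 higher and 7 lower, with a median of -0.40. Depth limits most insertions: 853 of 978 were too low to test.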
